A study of Mus musculus with 6 samples.

Results

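Claudins and mucins were followed in RNA from ectopic endometriotic lesions of mice, as the genes whose mouse symbol starts with Cldn or Muc followed by a digit. The count table lists 56884 genes, and 44 of them fit this rule, 34 claudins and 10 mucins. Of these, 18 held enough counts to be tested (14 claudins and 4 mucins). A further 14 had counts too low to be tested and 12 were at 0 in every lesion. The identifiers of Muc4, Muc6, Muc19 and Cldn34c3 were not matched, and these genes were not analysed here.

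The lesions grew from uterine fragments of female donors, aged 8 weeks, that were either Dnmt3a f/f (control, WT) or Dnmt3a f/f:PR-Cre/+ (KO), in which Cre recombinase made by cells with progesterone receptor deletes the floxed part of the DNA methyltransferase gene Dnmt3a. Both genotypes thus carry the floxed allele. All recipients were wild-type C57BL/6J females with an estrogen pellet, so blood vessels, immune cells and neighbouring tissue of the recipient kept Dnmt3a in both groups. The labels describe injection of the fragments into the abdominal cavity and a time of 4 weeks, whereas the methods of the study describe a fragment sutured to the mesentery and a shorter interval, and which of these applies to the libraries is not settled here. There were 3 lesions in each group, with 1 library for each lesion.

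Claudins are membrane proteins that span the membrane several times and form the strands of tight junctions, the seal between neighbouring epithelial cells. Sealing claudins close the path between cells, while channel-forming claudins leave pores in it for ions and water. Mucins are heavily O-glycosylated proteins, either anchored in the apical membrane, where they form the glycocalyx of the uterine epithelium, or secreted as gels. In the uterus the membrane mucin MUC1 is known to cover the luminal surface, and levels of several claudins and of MUC1 follow the ovarian steroids.

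The 6 libraries held 45370342 to 57239184 counts. Dnmt3a itself was at 52.7, 43.9 and 51.7 CPM (counts scaled by library size) in WT and at 30.3, 33.5 and 36.2 CPM in KO lesions, each listed for replicates 1, 2 and 3, so each KO lesion was below each WT lesion and none was without Dnmt3a RNA. Single lesions also held RNA of other tissues. The 12 skeletal muscle markers summed to 36910 and 40104 CPM in WT replicates 1 and 3 and to at most 21.8 CPM in the other 4 lesions, 10 neutrophil markers summed to 10141 CPM in WT replicate 2 against at most 505 CPM elsewhere, and 10 pancreatic acinar markers summed to 6012 CPM in WT replicate 3 against at most 16.3 CPM elsewhere. All 11 markers of endometrial epithelium and all 13 markers of general epithelium were expressed well enough to be tested. General epithelial markers summed to 2980, 2936 and 4250 CPM in WT and to 5278, 4791 and 2669 CPM in KO lesions, so this sum was highest in KO replicates 1 and 2 and lowest in KO replicate 3. The endometrial epithelial markers, at 26847, 16669 and 25718 CPM in WT and at 49597, 36782 and 23993 CPM in KO lesions, were also highest in KO replicates 1 and 2 but lowest in WT replicate 2. Most of this sum was the secretory gene Ltf, at 19058, 9882 and 15526 CPM in WT and at 33570, 25488 and 15673 CPM in KO lesions. Of the 11 endometrial markers, 8 had a log2 fold change above 0 and 3 below. None of the 13 general markers reached an unadjusted p under 0.05, and their median log2 fold change was 0.53. In bulk lesions fewer cells of a type and less RNA per cell cannot be told apart.

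Dnmt3a methylates cytosine at CG, so the sequences just upstream of Cldn2, Cldn10 and Cldn4 are shown, the 3 members past the study's threshold described further on. Each line gives the 250 bases before a start site in RefSeq (GRCm38.p6), read 5′ to 3′ on the strand of the gene, with every CG in capitals. Cldn2 is encoded on the plus strand at chrX:139800558-139800807, Cldn10 on the plus strand with start sites after chr14:118787621-118787870 and chr14:118854700-118854949, and Cldn4 on the minus strand at chr5:134946935-134947184.
Cldn2: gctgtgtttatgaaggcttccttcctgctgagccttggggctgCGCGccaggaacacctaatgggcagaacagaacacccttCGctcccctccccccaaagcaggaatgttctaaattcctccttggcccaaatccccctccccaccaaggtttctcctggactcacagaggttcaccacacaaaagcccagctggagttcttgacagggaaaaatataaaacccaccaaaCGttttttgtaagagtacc
Cldn10, upstream start: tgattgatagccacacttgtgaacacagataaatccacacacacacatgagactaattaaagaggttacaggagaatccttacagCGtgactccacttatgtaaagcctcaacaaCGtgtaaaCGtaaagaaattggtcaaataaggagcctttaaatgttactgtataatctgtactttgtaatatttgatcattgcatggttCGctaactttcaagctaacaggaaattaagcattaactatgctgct
Cldn10, downstream start: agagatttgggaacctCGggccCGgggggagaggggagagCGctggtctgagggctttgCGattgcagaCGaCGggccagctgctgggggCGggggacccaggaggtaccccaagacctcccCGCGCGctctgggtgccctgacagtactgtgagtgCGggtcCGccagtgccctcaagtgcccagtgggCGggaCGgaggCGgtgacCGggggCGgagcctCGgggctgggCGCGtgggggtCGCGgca
Cldn4: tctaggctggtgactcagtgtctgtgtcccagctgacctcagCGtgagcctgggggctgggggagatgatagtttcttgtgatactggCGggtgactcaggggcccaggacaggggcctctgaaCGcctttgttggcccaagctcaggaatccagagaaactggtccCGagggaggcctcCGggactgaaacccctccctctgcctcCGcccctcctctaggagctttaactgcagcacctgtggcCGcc

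The Cldn2 window holds 4 CG, the upstream Cldn10 window 4 and the Cldn4 window 7, near the median of 6 CG over all 32851 promoter windows of the same length in RefSeq. The downstream Cldn10 window holds 22 CG, and 14.8% of all windows hold at least that many. The Cldn2 window has TATAAA on its own strand from position -35, a motif found on either strand in 12.4% of all windows. The palindrome of an estrogen response element, GGTCA and TGACC with 3 bases between them, is in 0.0639% of all windows and in none of the 41 windows of the 32 members that had an entry. Methylation was not measured in these libraries, and the counts do not say which Cldn10 start was used.

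Among channel-forming claudins, Cldn2 and Cldn10 had higher levels in KO lesions, with a large spread, and neither passed the test after adjustment. By the quasi-likelihood test of edgeR, adjusted after Benjamini and Hochberg over all 18177 genes tested, no claudin or mucin passed an adjusted p of 0.05 in either direction, and over all genes 0.0% passed as higher and 0.0055% as lower. With unadjusted p under 0.05, 3 of the 18 tested members were higher in KO (Cldn2, Cldn10 and Cldn12) and 1 was lower (Cldn4), where 6.55% of all genes tested were higher and 8.16% lower by the same rule. With a log2 fold change beyond 1 required as well, the rule the study used, 2 members were higher (background 3.1%) and 1 was lower (background 5.85%). Among the tested members the groups did not overlap for 2 with KO higher (background 10.7%) and for none with KO lower (background 8.74%), while the untested Cldn19 had each KO lesion below each WT lesion. By the log2 fold change, 12 tested members were above 0 and 6 below, with a median of 0.25 beside 0.01 over all genes tested. DESeq2 gave an adjusted p under 0.05 to 1 member as higher, Cldn2, and 1 as lower, Cldn19, against a background of 1.56% higher and 3.9% lower.

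**Figure D1:**
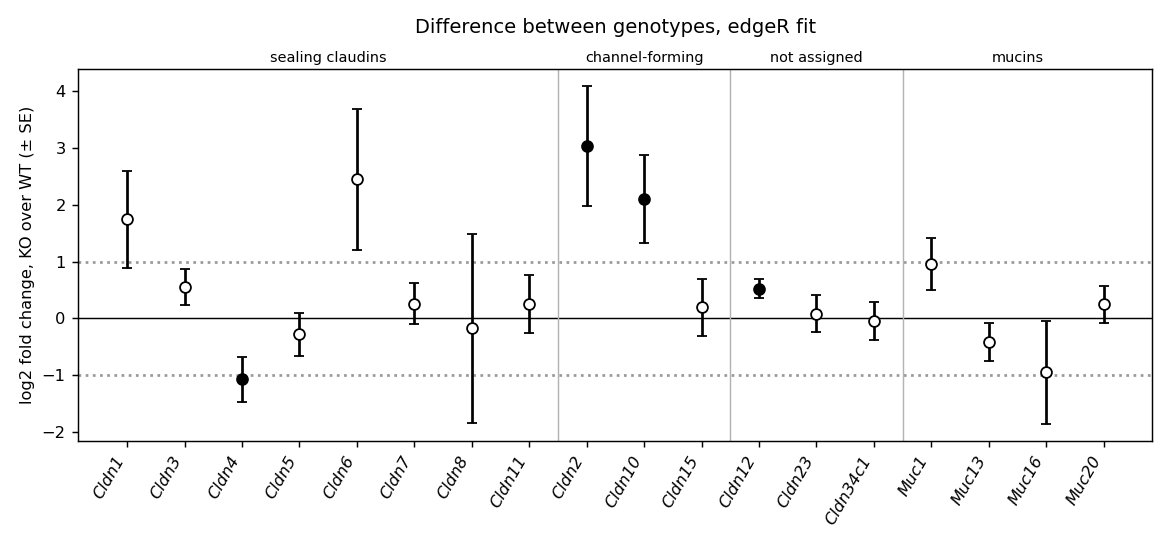
Log2 fold change of KO over WT lesions for the 18 tested claudins and mucins (y axis, log2 scale), with bars of 1 standard error from edgeR's quasi-likelihood fit, filled points for an unadjusted p under 0.05 and dotted lines at 1 and -1. Cldn2 is the highest at 3.03, Cldn4 the lowest at -1.07, and the bar of Cldn8 is the longest, with a standard error of 1.66.

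Cldn2, a pore for sodium and water that is typical of leaky epithelia, was at 36.3, 2.93 and 39.5 CPM in WT and at 291, 288 and 63.7 CPM in KO lesions. Each KO lesion was above each WT lesion, but KO replicate 3 stood far closer to WT replicates 1 and 3 than to the other KO lesions, and WT replicate 2 was far below the rest. The WT mean was 26.2 ± 20.2 CPM (SD, n = 3), the KO mean 214 ± 130 CPM (SD, n = 3), and the fitted change was 8.16-fold, a log2 fold change of 3.03 with a standard error of 1.06 (unadjusted p = 0.0283, adjusted p = 0.328, edgeR). The exact two-sided permutation test gave p = 0.1, the smallest value that 3 lesions against 3 allow. Over 15 other settings the log2 fold change lay between 2.50 and 3.46 and the adjusted p between 0.0229, in DESeq2, and 0.668.

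Cldn10, whose isoforms form pores for cations or for anions, was at 38.4, 8.46 and 22.8 CPM in WT and at 117, 153 and 28.9 CPM in KO lesions. KO replicate 3 fell inside the WT range, so the groups overlapped, and WT replicate 2 was again the lowest. Its log2 fold change came to 2.10, standard error 0.77 (unadjusted p = 0.0343, adjusted p = 0.332, edgeR), and it ranged from 1.66 to 2.67 over the 15 other settings. The third channel-former with enough counts, Cldn15, a cation pore best known from the intestine, was at 29.1, 22.1 and 11 CPM in WT and at 11.4, 34.0 and 25.8 CPM in KO lesions. Its groups overlapped over nearly their whole range (log2 fold change 0.20, standard error 0.50). Cldn16 and Cldn17 were at 0 in every lesion.

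Cldn15 was lowest in WT replicate 3 and KO replicate 1, and so were 5 of the 9 markers of mesothelium, the lining of the abdominal cavity (Msln, Upk3b, Upk1b, Lrrn4 and Gpm6a). Msln was at 69.4, 45.8 and 8.46 CPM in WT and at 4.10, 65.6 and 38.9 CPM in KO lesions. The other 4 markers, Wt1, Krt19, Ezr and Igfbp5, were ordered otherwise, and Krt19, which other epithelia also express, was highest in WT replicate 3 and KO replicate 1. All 9 summed to 1832, 1459 and 1238 CPM in WT and to 1280, 1820 and 933 CPM in KO lesions, lowest in KO replicate 3. The part of mesothelium in the Cldn15 values was not tested.

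**Figure D2:**
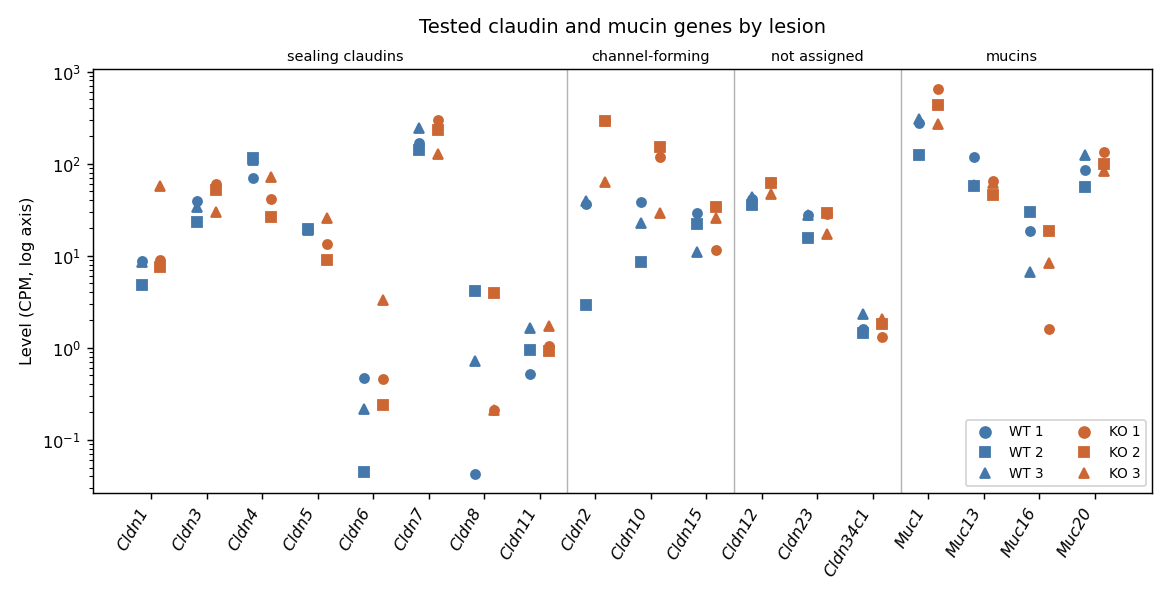
Level of the 18 tested claudins and mucins in each lesion, in CPM on a log axis, with 1 point for each lesion, WT and KO side by side, and the shape of the point giving the replicate. For Cldn2 and Cldn12 each KO lesion lies above each WT lesion, for Cldn10 and Cldn4 KO replicate 3 falls in the WT range, and for Cldn7 and Muc1 the groups overlap.

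Of the 12 sealing claudins listed, 8 had enough counts to be tested, 5 with a log2 fold change above 0 and 3 below, and Cldn4 alone had an unadjusted p under 0.05. Cldn4, a sealing claudin of many glandular epithelia and a receptor for a Clostridium enterotoxin, was at 69.9, 114 and 110 CPM in WT and at 41.1, 26.3 and 71.9 CPM in KO lesions. The lesions of the groups overlapped by a narrow margin, KO replicate 3 lying just above WT replicate 1. The WT mean was 97.8 ± 24.3 CPM (SD, n = 3) and the KO mean 46.4 ± 23.3 CPM (SD, n = 3), with a log2 fold change of -1.07 and a standard error of 0.40 (unadjusted p = 0.0367, adjusted p = 0.332, edgeR; exact permutation p = 0.2). It stayed between -1.54 and -0.79 over the 15 other settings and had an unadjusted p under 0.05 in 11 of them, but not without WT replicate 2, WT replicate 3, KO replicate 1 or KO replicate 2.

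Cldn3, which lies beside Cldn4 on chromosome 5 of GRCm38, was at 39.1, 23.3 and 33.7 CPM in WT and at 59.8, 51.5 and 30.0 CPM in KO lesions. Its log2 fold change had the opposite sign, 0.56 with a standard error of 0.31 (unadjusted p = 0.128). The log2 ratio of Cldn3 to Cldn4 was -0.84, -2.29 and -1.70 in WT and 0.54, 0.97 and -1.26 in KO lesions, with KO replicate 3 inside the WT range. In KO replicates 1 and 2 the ratio was thus higher than in any WT lesion.

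Cldn7, the most abundant claudin by mean CPM over all lesions, is found along the lateral membrane of epithelial cells. It was at 166, 142 and 245 CPM in WT and at 301, 234 and 128 CPM in KO lesions, and its log2 fold change was 0.26 (standard error 0.37). Cldn7 and the sum of general epithelial markers were both highest in KO replicate 1 and lowest in KO replicate 3. KO replicate 2 and WT replicate 3 changed places between these orders. Cldn1, a barrier claudin of epidermis and other epithelia, was at 8.80, 4.77 and 8.59 CPM in WT and at 8.88, 7.47 and 57.7 CPM in KO lesions. KO replicate 3 alone set its log2 fold change of 1.74 (standard error 0.86, unadjusted p = 0.0893), which was 0.15 without that lesion. Cldn6, a claudin of embryonic epithelia, was likewise highest in KO replicate 3, at 3.33 CPM, against 0.238 and 0.456 CPM in the other KO lesions and 0.0450 to 0.470 CPM in WT (log2 fold change 2.45, standard error 1.24).

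Cldn5, the main claudin of endothelium, was at 19.6, 19.4 and 19.0 CPM in WT and at 13.3, 9.0 and 25.5 CPM in KO lesions. The 9 endothelial markers summed to 511 to 608 CPM in WT and to 356, 249 and 655 CPM in KO lesions, so Cldn5 and the endothelial markers were both lowest in KO replicate 2 and highest in KO replicate 3. The part of endothelium in the Cldn5 values was not tested. Cldn8, a sealing claudin known from the distal nephron, reached 4.10 CPM in WT replicate 2 and 3.89 CPM in KO replicate 2 and stayed at or below 0.726 CPM in the other 4 lesions. Cldn11, which seals myelin and the Sertoli cell barrier, stayed between 0.512 and 1.71 CPM, with a log2 fold change of 0.25 and a standard error of 0.51.

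The remaining tested claudins are not assigned to either class here. Cldn12, which lacks the usual scaffold-binding end of claudins, was at 41.2, 35.4 and 43.3 CPM in WT and at 63.4, 61.8 and 46.4 CPM in KO lesions. Each KO lesion was above each WT lesion, although KO replicate 3 exceeded WT replicate 3 by little. Its log2 fold change was small, 0.52 with a standard error of 0.17 (unadjusted p = 0.0213, adjusted p = 0.328, edgeR), and lay between 0.44 and 0.65 over the 15 other settings. Cldn12 had an unadjusted p under 0.05 in 10 of these settings, the same number as for Cldn2 and Cldn10. Cldn23 ranged from 15.4 to 29.3 CPM and Cldn34c1 from 1.30 to 2.31 CPM, with log2 fold changes of 0.08 (standard error 0.32) and -0.04 (standard error 0.33), so their groups lay over each other. Under upper quartile scaling, which moved the median of all genes from 0.01 to 0.11, the value of Cldn34c1 turned to 0.051.

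The claudins were also set against each other within a lesion, as CPM per kilobase of exon, so that genes of different length could be compared. Channel-forming claudins made up 16.7%, 7.13% and 9.17% of the summed claudin level in WT and 34.0%, 41.2% and 18.8% in KO lesions, so each KO lesion lay above each WT lesion, KO replicate 3 by a small margin. Sealing claudins made up 72.6%, 84.1% and 81.6% in WT and 58.4%, 47.3% and 71.9% in KO lesions. A larger channel-forming share lowers the sealing share by itself. In CPM, the sealing claudins summed to 305, 309 and 420 in WT and to 426, 333 and 318 in KO lesions, with overlapping groups. Cldn7 was the largest share in all 6 lesions, at 29.1% to 44.7%. Second place was held by Cldn4 in the WT lesions, at 16.3%, 30.8% and 21.4%, and by Cldn2 in KO replicates 1 and 2, at 21.5% and 22.1%, while in KO replicate 3 it was still Cldn4, at 17.6%. The summed claudin level itself was 236, 204 and 282 CPM per kilobase in WT and 406, 392 and 225 in KO lesions, with overlapping groups. These shares are a description without a test.

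**Figure D3:**
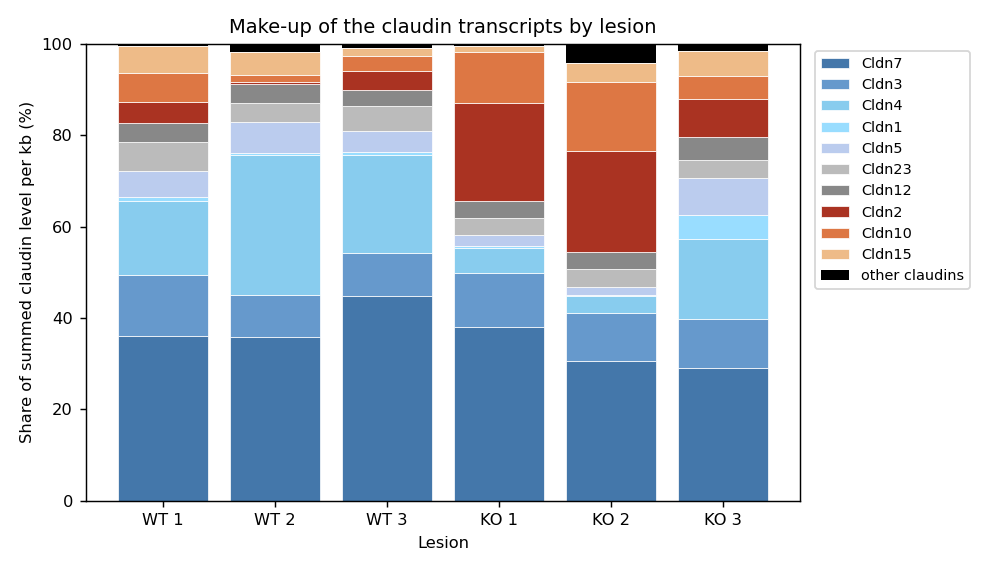
Make-up of the claudin RNA of each lesion, as percent of the summed claudin CPM per kilobase of exon (y axis, stacked bars from 0), with 1 bar per lesion. Cldn7 is the largest band in each bar, the Cldn4 band is 3.69% to 17.6% in KO and 16.3% to 30.8% in WT lesions, and the Cldn2 band is 8.50% to 22.1% in KO and 0.432% to 4.62% in WT lesions.

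Because epithelial RNA differed between lesions, each member was also set against the geometric mean CPM of the epithelial genes Epcam, Cdh1, Krt8 and Krt18, which in WT lesions was 292, 245 and 393 CPM and in KO lesions 517, 497 and 270 CPM. Relative to these genes, Cldn2 differed by 3.00 on the log2 scale between the group means, with values of -3.01, -6.39 and -3.31 in WT and -0.83, -0.79 and -2.09 in KO lesions and no overlap. Cldn10 differed by 1.61 and Cldn4 by -1.60, both with KO replicate 3 inside the WT range. The difference for Cldn12 was 0.07, with overlapping groups, against 0.52 in the fit without this ratio. Cldn3 and Cldn7 differed by 0.09 and -0.22. Cldn7 followed the epithelial genes closely, with an SD of 0.072 over the WT and 0.18 over the KO lesions. For Cldn3 the SD was 0.34 over the WT and 0.079 over the KO lesions. The log2 ratio of Cldn2 to Cldn4, which needs no epithelial reference, was -0.95, -5.28 and -1.47 in WT and 2.82, 3.45 and -0.18 in KO lesions. It sets the tested member with the highest log2 fold change over the one with the lowest. Its lack of overlap is therefore no result separate from that of Cldn2.

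**Figure D4:**
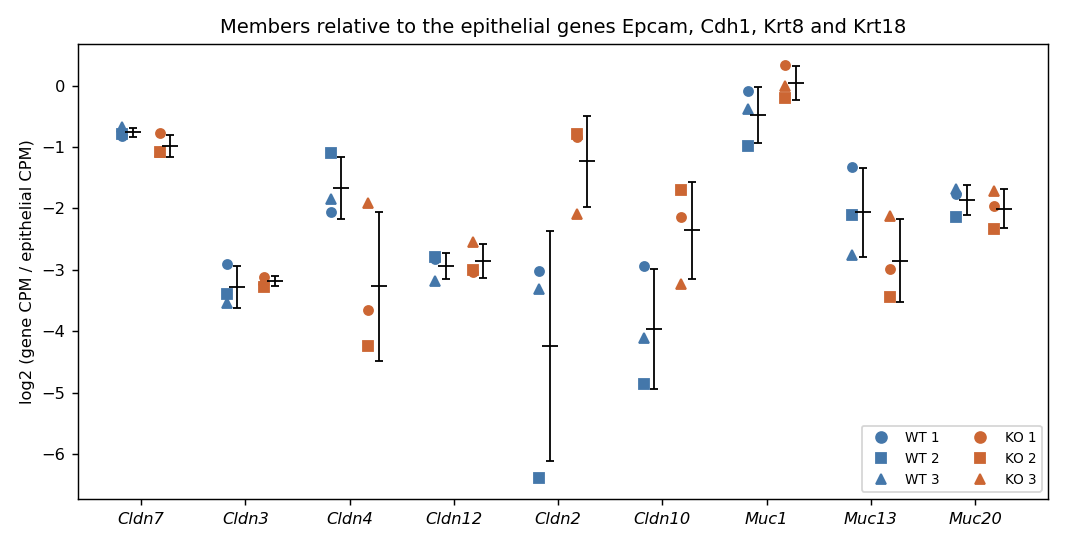
Log2 ratio of the CPM of 9 members to the geometric mean CPM of Epcam, Cdh1, Krt8 and Krt18 in each lesion (y axis, log2 scale), with points for lesions and bars for the group mean and SD (n = 3). The groups of Cldn2 stay apart, with a difference of 3.00 between the means, those of Cldn12 and Cldn3 lie level, and KO replicate 3 joins the WT lesions for Cldn4 and Cldn10.

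Of the mucins, Muc1 was by far the most abundant, and none of the 4 tested reached an unadjusted p under 0.05. Muc1, the membrane mucin of the uterine surface, was at 275, 124 and 302 CPM in WT and at 654, 430 and 268 CPM in KO lesions. KO replicates 1 and 2 were above all WT lesions, while KO replicate 3 was below WT replicates 1 and 3. The WT mean was 234 ± 96.2 CPM (SD, n = 3) and the KO mean 451 ± 194 CPM (SD, n = 3), with a log2 fold change of 0.95 and a standard error of 0.46 (unadjusted p = 0.083, adjusted p = 0.370, edgeR; exact permutation p = 0.3). Relative to the 4 epithelial genes the difference was 0.52 with overlapping groups. Without KO replicate 3, Muc1 had an unadjusted p under 0.05 and a log2 fold change of 1.22, so that lesion decided which side of the threshold it fell on.

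Muc13, a membrane mucin of the gut and other epithelia, was at 117, 56.9 and 57.9 CPM in WT and at 65.2, 45.9 and 62.4 CPM in KO lesions. WT replicate 1 set most of its log2 fold change of -0.42 (standard error 0.33), which was 0.01 without that lesion. Muc20, a small membrane mucin, was at 85.9, 55.6 and 123 CPM in WT and at 132, 98.9 and 82.8 CPM in KO lesions (log2 fold change 0.25, standard error 0.33). Part of its exons overlaps Muc4 on the opposite strand, and since the strand setting of the counting is not given in the sources used here, reads of the genes could not be separated there.

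Muc16, the very long membrane mucin that carries the CA-125 antigen, was at 18.6, 29.7 and 6.58 CPM in WT and at 1.61, 18.3 and 8.40 CPM in KO lesions. Its log2 fold change of -0.95 had a standard error of 0.91, so it was about as large as its error. Mesothelium is known to make Muc16. Muc16 was lowest in KO replicate 1 and WT replicate 3, as were 5 of the 9 mesothelial markers given with Cldn15, whereas the other 4 and the sum of all 9 were not lowest in both of these lesions. The part of mesothelium in the Muc16 values was not tested. Mucin shares were taken per kilobase of exon over the 10 mucins followed here, without Muc4, Muc6 and Muc19. Muc1 made up 65.9%, 61.0% and 72.1% of this sum in WT and 83.7%, 81.9% and 73.3% in KO lesions. Each KO lesion was thus above each WT lesion, KO replicate 3 by little over WT replicate 3. The share of Muc13 was 21.6%, 21.7% and 10.7% in WT and 6.43%, 6.75% and 13.2% in KO lesions.

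The gel-forming mucins Muc2, Muc5ac and Muc5b, neighbours on chromosome 7, reached at most 0.470 CPM in any lesion and could not be tested. For scale, 3 counts equal 0.0526 to 0.0675 CPM in these libraries, and 6 counts up to 0.135 CPM. Intestinal epithelium, a tissue near the lesions that makes Muc2, Muc13 and several claudins, was checked with 12 markers, which summed to 67.5 to 113 CPM in WT and to 31.7 to 44.9 CPM in KO lesions. Most of that sum was Gpa33 and Krt20. Gpa33 was at 49.4, 81.5 and 58.2 CPM in WT and at 11.3, 9.02 and 33.5 CPM in KO lesions. Krt20 was at 16.4, 28.9 and 20.1 CPM in WT and at 26.1, 18.9 and 10.4 CPM in KO lesions, above Gpa33 in KO replicates 1 and 2. Cdx1, Cdx2, Fabp1, Fabp2 and Phgr1 were at 0.135 CPM or below in every lesion. Vil1, Lgals4 and Cdh17 reached 1.67, 2.48 and 0.726 CPM. Apoa1 and Apoa4 reached 0.636 and 0.993 CPM, both in KO replicate 2. Of the 5 markers tested, 1 had a log2 fold change above 0 and 4 below. Gpa33, Cdh17 and Lgals4 were past the study's rule as lower in KO lesions (background 5.85%). The part of intestinal epithelium in the member values was not tested.

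A pair of untested members is named for its counts in single lesions. Cldn22 had 10, 4 and 6 counts in WT and 2, 695 and 8 counts in KO lesions, so 1 lesion, KO replicate 2, held nearly all of its reads. All 995 of its exonic bases lie within Wwc2 on the opposite strand in GENCODE M21 (GRCm38), from 47824482 to 47825476 on chromosome 8. Wwc2 was at 79.7 CPM in KO replicate 2 and between 71.8 and 107 CPM in the other lesions. Whether reads of Wwc2 are part of the Cldn22 counts was not tested. Cldn34b2 had 4, 36 and 14 counts in WT and 0, 0 and 8 counts in KO lesions. The other 12 members with counts had 2 to 58 counts over all lesions together, the highest being Cldn19, which seals myelin and kidney epithelium, with 30, 4 and 22 counts in WT and 2, 0 and 0 counts in KO lesions. It was named after its values were seen. Cldn19 was highest in WT replicates 1 and 3, the lesions that held skeletal muscle RNA, and the part of that tissue in its counts was not tested. At 0 in every lesion were Cldn14, Cldn16, Cldn17, Cldn18, the pseudogenes Cldn25-ps and Cldn34-ps, and Cldn34a, Cldn34b1, Cldn34b3, Cldn34b4, Cldn34c4 and Cldn34d, a count of 0 that allows up to 0.0675 CPM in the smallest library, or 0.135 CPM if each read pair gave 2 counts, since most counts were even.

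The other proteins of the tight junction were read from the same fit, as a list of 25 genes that were all tested. Of these, 21 had a log2 fold change above 0, with a median of 0.45 beside 0.01 over all genes tested, close to the median of 0.53 over the 13 general epithelial markers. With unadjusted p under 0.05, 5 were higher in KO (background 6.55%) and none was lower (background 8.16%), and none passed after adjustment. For 6 each KO lesion was above each WT lesion (background 10.7%). Prkci, the atypical protein kinase C of the polarity complex, was at 51.2, 50.3 and 57.7 CPM in WT and at 80.4, 90.9 and 73.7 CPM in KO lesions (log2 fold change 0.62, standard error 0.13, unadjusted p = 0.00299, adjusted p = 0.321, edgeR). Each KO lesion of Prkci was above each WT lesion. Magi3, a scaffold of the junction, had a log2 fold change of 0.58 and a standard error of 0.16.

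The other 3 with an unadjusted p under 0.05, named after their values were seen, were Marveld3 (log2 fold change 1.15), a strand protein related to occludin, Ildr1 (0.79), a protein of tricellular corners, and Cgnl1 (0.53), the cytoskeletal linker paracingulin. The scaffold Tjp1 (ZO-1), which binds most claudins, was at 130, 119 and 146 CPM in WT and at 130, 141 and 158 CPM in KO lesions, a log2 fold change of 0.12 with a standard error of 0.14. Ocln, the strand protein occludin, was at 17.6, 18.6 and 21.9 CPM in WT and at 33.2, 38.4 and 15.8 CPM in KO lesions, with KO replicate 3 below all WT lesions (log2 fold change 0.59, standard error 0.34). On the lower side, Ildr2 and Mpdz had log2 fold changes of -0.63 and -0.25, both smaller than their standard errors of 0.87 and 0.37.

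Genes of mucin O-glycosylation and goblet-type secretion gave 23 tested genes, with a median log2 fold change of 0.38, and 16 were above 0. With unadjusted p under 0.05, 6 were higher in KO (background 6.55%) and none was lower (background 8.16%). Of the 6, 5 were beyond 1 on the log2 scale (background 3.1%), and none passed after adjustment in edgeR. Galnt4, which adds the first sugar to mucin threonines and serines, was at 35.0, 31.3 and 38.5 CPM in WT and at 72.4, 65.9 and 45.8 CPM in KO lesions (log2 fold change 0.81, standard error 0.20, unadjusted p = 0.00687). St6galnac2, a sialyltransferase that caps these sugars, was at 9.18, 7.14 and 13.1 CPM in WT and at 42.8, 34.6 and 16.3 CPM in KO lesions (log2 fold change 1.67, standard error 0.42, unadjusted p = 0.00699). In both genes each KO lesion was above each WT lesion, with KO replicate 3 the nearest to WT.

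The other 4, named after their values were seen, were Agr2, Clca1, C1galt1c1 and St6galnac1. Agr2, the disulfide isomerase that folds gel-forming mucins, was at 1.15, 0.855 and 1.71 CPM in WT and at 6.63, 48.3 and 2.67 CPM in KO lesions, without overlap, with KO replicate 2 far above the other lesions. Clca1, a secreted protease of mucus, was at 128, 236 and 58.8 CPM in WT and at 2548, 1422 and 208 CPM in KO lesions, where KO replicate 3 lay inside the WT range (log2 fold change 3.30, standard error 0.99, unadjusted p = 0.0156, adjusted p = 0.321, edgeR). Of the genes with log2 fold changes below 0, St3gal1, a sialyltransferase of the core sugars, was at 144, 254 and 151 CPM in WT and at 80.0, 86.7 and 154 CPM in KO lesions (-0.77, standard error 0.35). Tff2, a trefoil peptide secreted with mucus, was at 28.6 CPM in WT replicate 3, the lesion with pancreatic RNA, and at most 0.491 CPM elsewhere. Clca1 and Muc1 were thus both highest in KO replicates 1 and 2, lesions in which the gel-forming mucins stayed near 0.

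**Figure D5:**
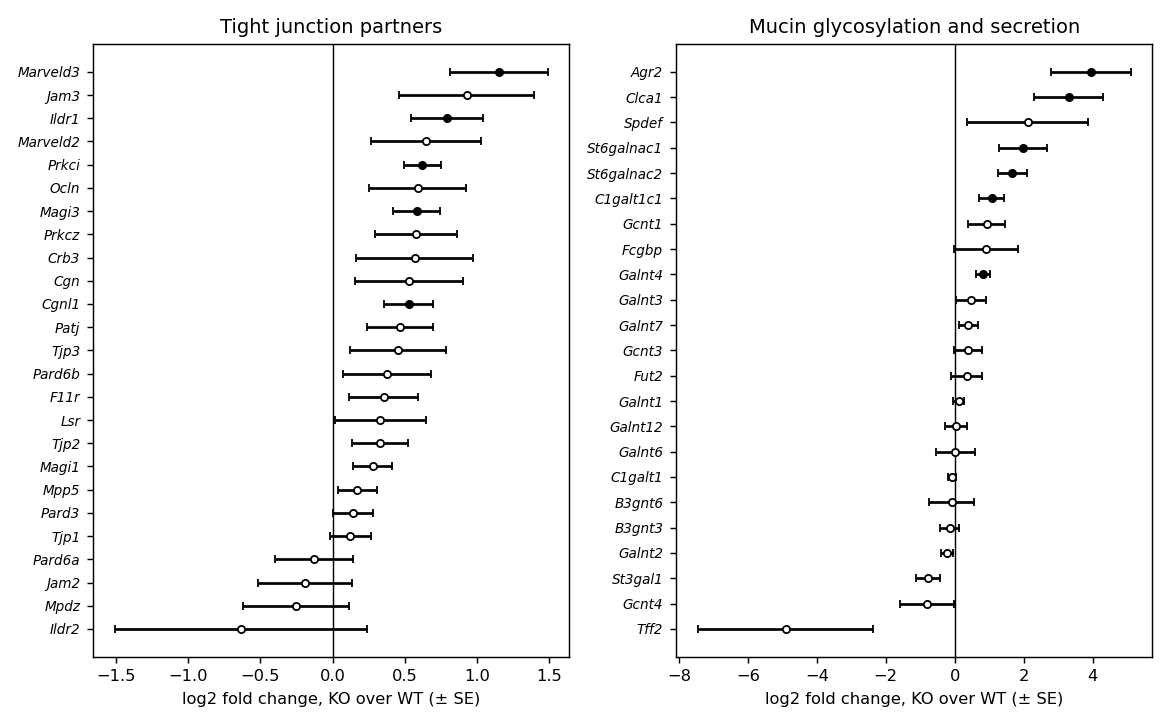
Log2 fold change of KO over WT lesions (x axis, log2 scale) for the 25 tested genes of the tight junction and the 23 tested genes of mucin glycosylation and secretion, with bars of 1 standard error and filled points for an unadjusted p under 0.05. The tight junction genes range from -0.63 (Ildr2) to 1.15 (Marveld3) around a median of 0.45, and the mucin genes spread from -4.91 (Tff2) to 3.95 (Agr2).

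KO replicate 3 was the KO lesion nearest to the WT lesions for Cldn2, Cldn10, Cldn12 and Cldn4, and it held the lowest sum of general epithelial markers and the most of the adipocyte markers (6114 CPM against 856 to 4177 CPM in the other lesions). Without it, 4 members were past the study's rule as higher, Cldn2, Cldn10, Cldn22 and Muc1, and 3 as lower, Cldn4, Cldn19 and Cldn34b2. Without KO replicate 1 or without WT replicate 3 no member was past it as higher, and without KO replicate 2 it was Cldn1 alone. Without WT replicate 1 the member past it as higher was Cldn10, and without WT replicate 2, the lesion with neutrophil RNA and the lowest Cldn2, it was Cldn2. As lower, Cldn4 was past the rule without WT replicate 1 or KO replicate 3 and not in the other 4 of these 6 fits, where it was Cldn19 alone without WT replicate 2, KO replicate 1 or KO replicate 2, and no member without WT replicate 3. The part that adipocyte, neutrophil or epithelial content had in these values was not tested.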

How the data were processed

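The authors deposited whole-number read counts per gene, from stranded mRNA libraries. The submitters' processing notes name Trimmomatic, featureCounts, DESeq2 and GRCm39, while the methods of the study name GRCm38. Symbols and lengths came from GENCODE M21 (GRCm38), which matched 51948 of 56884 identifiers without their version and 35 with it, so coordinates can differ from the authors' gene models. Unmatched identifiers held 3.04% to 3.56% of the counts.

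Counts were tested with edgeR 4.0.16 in R 4.3.3 (filterByExpr, TMM, genotype only, quasi-likelihood test, Benjamini-Hochberg adjustment over 18177 genes), checked on simulated data. DESeq2 1.42.0 and limma 3.58.1 were alternatives. CPM used TMM-scaled totals. Standard errors are the log2 fold change over the square root of F. Each lesion was named by the replicate number in its label, and where nothing else ties lesions together p-values measure the spread between these lesions. Counts carry no molecular identifiers, so floors cover counting error only. Of the counts from 1 to 100, 87.8% were even, as when both mates of a pair are counted, so halved counts were tried. Values are given in every lesion for members with an unadjusted p under 0.05 and the most abundant ones, to 20 members. Of other lists, the 2 smallest p in each direction were named at a mean of at least 1 CPM, with Tjp1, Ocln and Dnmt3a. The members and lists were chosen with earlier results of these data known.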

Additional observations from a re-analysis of the deposited data

How the results depend on the processing

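For the rule of an unadjusted p under 0.05 with a log2 fold change beyond 1, the count of claudins and mucins was 2 higher and 1 lower. DESeq2 gave 4 higher (Cldn1, Cldn2, Cldn6 and Cldn10) and 2 lower, the replicate block 0 higher and upper quartile scaling 0 lower. No filter on low counts gave 3 higher (Cldn2, Cldn10 and Cldn22) and 2 lower, Cldn4 and Cldn19. With each lesion left out in turn the count was 0 to 4 higher and 0 to 3 lower. For the tight junction list (1 higher, 0 lower) it was 0 to 1 higher and 0 to 1 lower, with 0 higher (Marveld3 lost) and 1 lower (Ildr2) without KO replicate 2. For mucin glycosylation and secretion (5 higher, 0 lower) it was 3 to 6 higher and 0 to 2 lower, 3 higher with the replicate block, and 1 lower, Zg16, with no filter. At an adjusted p under 0.05 DESeq2 called 1 member higher and 1 lower, 1 tight junction gene (Prkci) higher and 4 genes of mucin glycosylation and secretion (Agr2, Clca1, Galnt4 and St6galnac2) higher, where edgeR called 0. The cause of these differences was not tested, apart from the filter, which decides whether Cldn19 and Cldn22 are tested.

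Lesions with the same replicate number did not deviate together (correlations of 0.03, -0.15 and -0.20 over tested genes), and no WT lesion correlated best with the KO lesion of its own number, so the numbers do not pair the lesions. Direction was kept in all alternatives for Cldn1, Cldn2, Cldn3, Cldn4, Cldn6, Cldn10, Cldn12, Muc1, Muc16 and Muc20. It turned in limma voom for Cldn8 (1.24) and in upper quartile scaling for Cldn34c1 (0.051). With 1 lesion left out, the log2 fold change ranged from -0.79 to 0.0097 for Cldn5, -0.030 to 0.54 for Cldn7, -2.93 to 1.89 for Cldn8, -0.070 to 0.73 for Cldn11, -0.15 to 0.52 for Cldn15, -0.14 to 0.30 for Cldn23, -0.19 to 0.17 for Cldn34c1 and -0.61 to 0.0093 for Muc13, each crossing 0. Halved counts and robust prior estimation were chosen after seeing the data.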
